A study of Mus musculus with 6 samples.

Results

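The genes of mouse MHC class I were followed in bulk RNA sequencing of 6 subcutaneous tumors, together with Nlrc5, the transactivator of class I genes. Members were taken by gene symbol from the count table, which gave 10 genes of 55487. They comprised 8 class I heavy chain genes (H2-K1, H2-D1, H2-Q4, H2-Q6, H2-Q7, H2-T22, H2-T23 and H2-M3), B2m and Nlrc5, and all 10 passed the filter on low counts that left 15114 genes for testing. All 6 tumors grew from CT26.WT, a BALB/c colon carcinoma line, implanted under the skin of BALB/c mice with an intact immune system. The cells carried no engineered change (genotype WT). Mice of the IFN-γ group (3 tumors) received interferon-γ through the tail vein every other day. Mice of the control group (3 tumors) received PBS by the same route, and the methods do not separately state its schedule. Both groups thus carried the implanted line and tail vein injections. The study's methods describe male mice bought at 4 weeks of age. The comparison asks which genes changed in tumors of immunocompetent mice under IFN-γ stimulation. No label says whether the 3 tumors of a group came from separate mice, so p-values measure only the spread between these samples.

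MHC class I molecules show peptides from inside the cell to CD8+ T cells. Each consists of a heavy chain, which binds the peptide, and β2-microglobulin, encoded by B2m, without which most heavy chains do not reach the cell surface. IFN-γ acts through its receptor and the kinases JAK1 and JAK2, which lead to the induction of IRF1 and Nlrc5, and Nlrc5 joins the RFX, CREB/ATF and NF-Y factors on class I promoters rather than binding DNA itself. The classical genes H2-K1 and H2-D1 present peptides widely, whereas the Q, T and M genes are nonclassical and have more restricted roles.

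The libraries held 15759300 to 17559680 counts. Levels are given as CPM, in which counts are scaled by the library totals and TMM factors. The limit that a count of 0 allows, set at 3 counts, was 0.169 to 0.188 CPM, for counting error alone. Of the colon epithelium markers, 4 of 9 passed the filter, and Cdx1, Cdx2 and Lgr5 had at most 3 counts in every tumor. Control tumor 1 stood apart from the others in sex-linked transcripts. It had 1 count of Xist and 9 counts of the Y-linked gene Ddx3y, whereas the other 5 tumors had 144 to 339 CPM of Xist and 0 counts of Ddx3y. The Y-linked genes Kdm5d, Uty and Eif2s3y also had 0 counts in those 5 tumors, although the methods describe male mice. The labels do not give the sex of each mouse, and the part of sex in the differences was not tested. IFN-γ tumor 3 stood apart in class I and leukocyte genes, as described below. Values are therefore also given without IFN-γ tumor 3 and, mainly at the end, without control tumor 1. Because IFN-γ tumor 3 was singled out by values of the members themselves, p-values without it are descriptions and not support for a change. With any other single tumor left out, edgeR called 0 members at an adjusted p under 0.05. Few genes of any kind were called in those fits, 0.0259% to 0.0454% of all genes as higher and 0.0129% to 0.026% as lower.

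Class I promoters share a short set of elements, which are shown here because Nlrc5 and the interferon factors act through them. The promoters of 9 of the 10 members were found in the RefSeq table (build GRCm38.p6, 250 bases before to 50 after the start), Nlrc5 being the other. Stretches are printed on the strand of the gene, from C57BL/6 reference sequence, and only where they lie outside annotated exons. Capitals mark GGGATTCCC (a site of NF-κB), GAANNGAAA or GAAANNGAA (interferon-stimulated elements of different spacing), TGACGC (the X2 box of CREB/ATF factors) and CCAAT (the Y box of NF-Y), each on either strand, and no marked site overlaps another.
H2-K1, chr17:34000351-34000465, minus strand: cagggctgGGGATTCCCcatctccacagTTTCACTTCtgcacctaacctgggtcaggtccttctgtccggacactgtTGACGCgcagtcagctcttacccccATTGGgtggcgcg
H2-Q4, chr17:35379456-35379574, plus strand: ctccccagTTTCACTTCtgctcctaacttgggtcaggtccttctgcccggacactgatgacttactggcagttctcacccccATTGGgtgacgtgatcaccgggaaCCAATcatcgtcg
H2-Q6, chr17:35424670-35424807, plus strand: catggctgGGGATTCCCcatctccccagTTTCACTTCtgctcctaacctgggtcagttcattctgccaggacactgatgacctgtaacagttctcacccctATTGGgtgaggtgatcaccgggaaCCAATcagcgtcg
H2-Q7, chr17:35439015-35439151, plus strand: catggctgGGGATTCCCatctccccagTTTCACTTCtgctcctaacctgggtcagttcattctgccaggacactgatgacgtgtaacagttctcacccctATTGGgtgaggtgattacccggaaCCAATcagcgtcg
H2-T22, chr17:36042793-36042951, minus strand: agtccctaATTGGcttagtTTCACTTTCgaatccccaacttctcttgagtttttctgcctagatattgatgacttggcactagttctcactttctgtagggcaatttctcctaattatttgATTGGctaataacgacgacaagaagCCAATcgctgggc
B2m, chr2:122147540-122147646, plus strand: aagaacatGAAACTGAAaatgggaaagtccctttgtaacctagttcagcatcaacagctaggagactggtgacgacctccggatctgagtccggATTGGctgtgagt
H2-K1, H2-D1, H2-Q4, H2-Q6, H2-Q7 and H2-M3 held GAANNGAAA, which 7.52% of the 32851 promoters of this table hold, and H2-T22, H2-T23 and B2m held GAAANNGAA, which 8.56% hold. GGGATTCCC was found in H2-K1, H2-D1, H2-Q6 and H2-Q7 and in 0.353% of all promoters. TGACGC was found in H2-K1, H2-D1, H2-Q4 and H2-M3 and in 7.40% of all promoters. In H2-Q4 it lay 30 bases past the start and is not in the printed stretch. CCAAT was found in all 9 and in 37.4% of all promoters.

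Because class I genes are copies of one another, reads cannot always be assigned to a single member. In the GENCODE M21 transcripts (GRCm38), the coding sequences of H2-Q6 and H2-Q7 were identical at 95.4% of 978 aligned bases, and those of H2-K1 and H2-D1 at 91.4% of 1077. The lowest identity was 68.2%, between H2-T22 and H2-M3. Among stretches of 50 bases, 43.9% of those of H2-T22 occurred in another gene, mostly H2-T10 (37.5%), and 34.9% of those of H2-Q7 did, mostly in H2-Q5 (17.4%) or H2-Q6 (17.0%). The corresponding shares were 32.0% for H2-Q6, 28.8% for H2-T23, 24.3% for H2-Q4, 13.9% for H2-D1, 6.87% for H2-K1 and 0.58% for H2-M3. At 150 bases, H2-Q7 (8.31%) and H2-Q6 (5.99%) kept the highest shares, whereas H2-K1, H2-Q4 and H2-M3 had none. No stretch of B2m or Nlrc5 of these lengths occurred in another gene. The read length, the counting program and the handling of reads that fit several genes are not given in the sources used here. H2-Q6 and H2-Q7 had high shares at 50 and at 150 bases, so their values carry much uncertainty of assignment. For H2-T22 it depends on the read length. Its share at 150 bases was 0.77%, below those of H2-D1 (1.54%) and H2-T23 (0.83%).

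**Figure D1:**
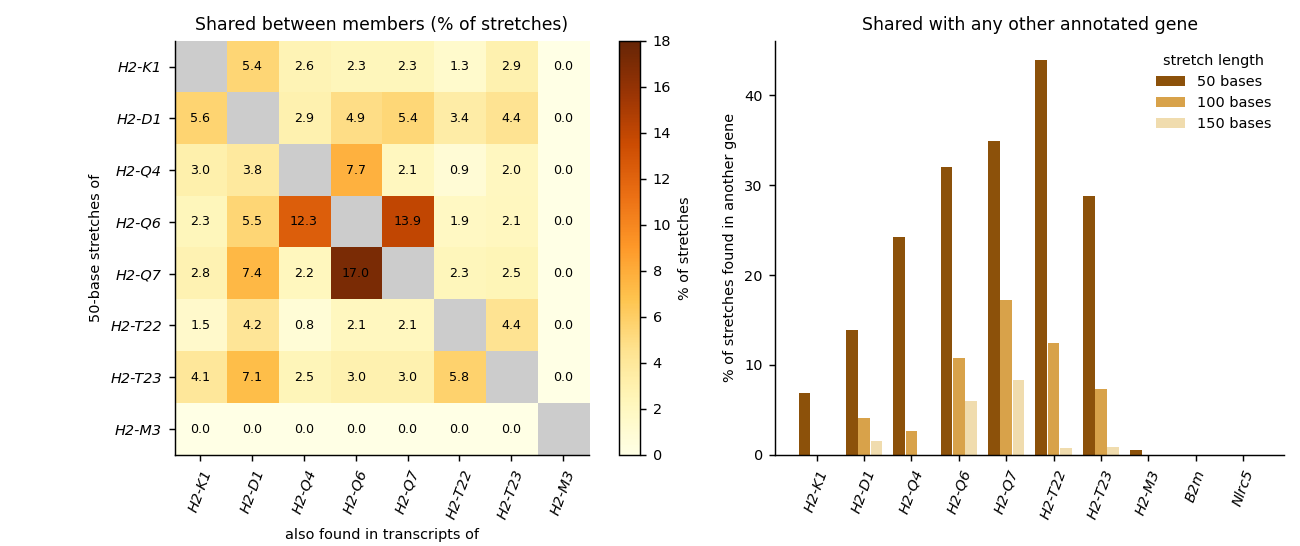
Left: percentage of the 50-base stretches of each heavy chain member (rows) that also occur in transcripts of another member (columns). Right: percentage of stretches of 50, 100 and 150 bases that occur in any other annotated gene. H2-Q6 and H2-Q7 share 13.9% and 17.0% of their 50-base stretches with each other, and B2m and Nlrc5 share none.

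The H2-Q6 and H2-Q7 coding sequences had an identical run of 265 bases. The window of 60 bases in which they differ most, coding bases 76 to 135, is shown as an example of sequence that separates their reads. Capitals mark the 10 differing bases.
H2-Q6: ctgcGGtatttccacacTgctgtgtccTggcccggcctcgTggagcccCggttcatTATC
H2-Q7: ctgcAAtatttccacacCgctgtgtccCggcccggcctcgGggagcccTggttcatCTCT
These are C57BL/6 alleles (H2 haplotype b), whereas BALB/c carries haplotype d. H2-Ea, a class II gene that mice of haplotype b do not express, was at 188 to 438 CPM in the control tumors and 484 to 980 CPM in the IFN-γ tumors, a check chosen after its values were seen. How well haplotype d reads mapped to each member was not tested, so levels of different members are also levels of what could be mapped.

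Per kilobase of exon, B2m was the most abundant member in the control tumors, at 2570 ± 200 RPKM (SD, n = 3), followed by H2-D1 at 689 ± 45.6 and H2-Q4 at 181 ± 19.5. H2-T23 (90.1 ± 14.8 RPKM), H2-K1 (86.1 ± 4.88) and H2-T22 (78.2 ± 8.16) came next, with overlapping ranges. H2-M3 stood at 45.0 ± 4.08 RPKM, above H2-Q6 (22.99 ± 5.91) and Nlrc5 (14.7 ± 3.88). H2-Q7 was lowest at 10.5 ± 9.16 RPKM, and its range overlapped that of Nlrc5. In counts, H2-D1 supplied 60.5% to 65.2% of the reads of the 8 heavy chains in every tumor. Genes on the opposite strand overlap H2-Q4, H2-T22, H2-T23, B2m and Nlrc5. The strandedness of the libraries is not given in the sources used here, and those genes had 0 to 15.7 CPM.

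In the IFN-γ group, B2m and 7 of the 8 heavy chains had higher mean levels than in the control group, by 1.11-fold (H2-Q6) to 1.57-fold (H2-T23), and Nlrc5 was 1.22-fold higher. None of the 10 members passed an adjusted p of 0.05 in either direction when all 6 tumors were compared (edgeR's quasi-likelihood test with Benjamini-Hochberg adjustment), and across all genes tested 0.0794% passed as higher and 0.0331% as lower. At an unadjusted p under 0.05, 7 members were higher (H2-K1, H2-D1, H2-Q4, H2-T22, H2-T23, H2-M3 and B2m) and 0 lower, against 5.74% and 4.44% of all genes. Fold changes were above 0 for 9 members and for 50.4% of all genes. DESeq2 called 3 members higher, B2m, H2-Q4 and H2-T22, and 0.867% of all genes, and edgeR without the filter on low counts called the same 3 and 0.558% of all genes. With limma-voom, 0 members and 0.0662% of all genes were called higher. Without IFN-γ tumor 3, edgeR called 6 members higher (H2-K1, H2-D1, H2-Q4, H2-T22, H2-T23 and B2m) and 2.46% of all genes. DESeq2 then called 8 members and 4.5% of all genes, and limma-voom 6 members and 2.72%. The median log2 fold change of the 10 members was 0.34 in all 6 tumors and 0.49 without IFN-γ tumor 3, while the median of all genes was 0.0015 and -0.016.

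**Figure D2:**
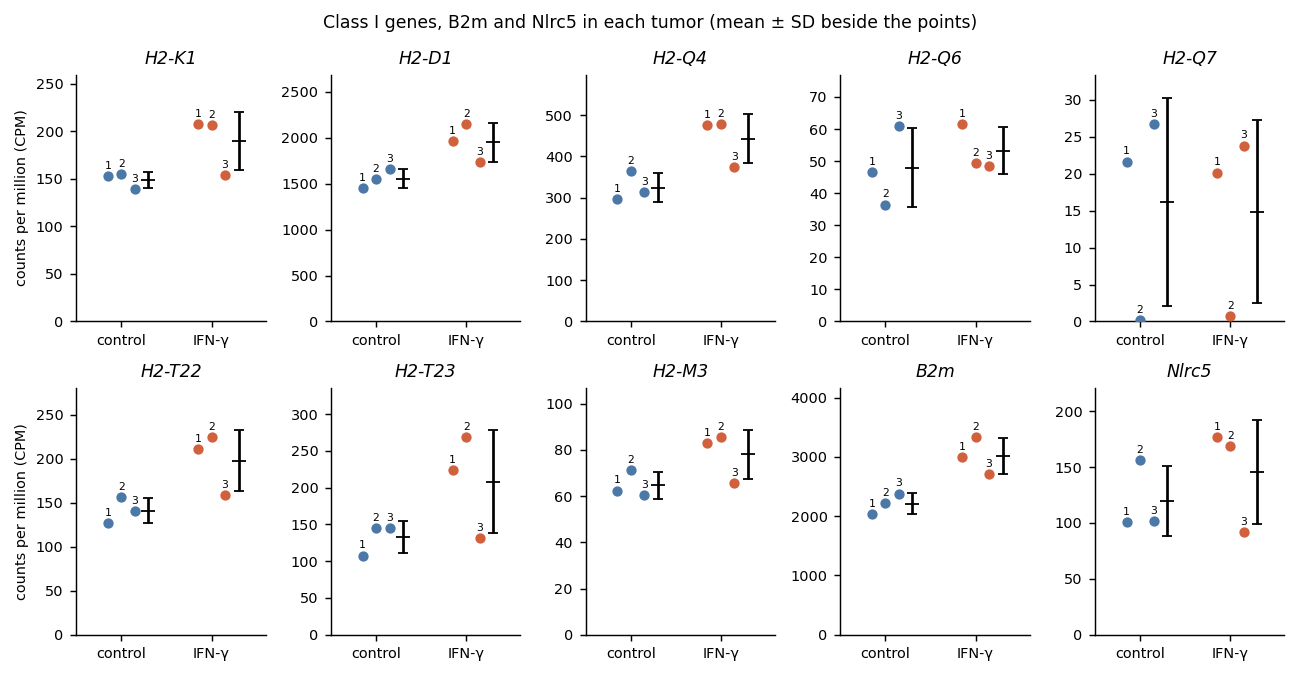
CPM of each member in each tumor (points, numbered by tumor), with mean and SD (n = 3) to the right of each group; axes start at 0 and differ between panels. IFN-γ tumors 1 and 2 lie above all controls in 8 panels, and IFN-γ tumor 3 lies above all controls in the panels of H2-D1, H2-Q4, H2-T22 and B2m, of which H2-Q4 and H2-T22 overlap with library size alone.

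B2m, the light chain shared by the class I molecules, was at 2035, 2218 and 2379 CPM in the control tumors and at 2996, 3330 and 2711 CPM in the IFN-γ tumors. All IFN-γ tumors were above all control tumors. Its log2 fold change was 0.45 (SE 0.10, edgeR adjusted p = 0.222), and 0.51 without IFN-γ tumor 3 (adjusted p = 0.0253). DESeq2 on all 6 tumors gave an adjusted p of 0.00514. B2m transcripts made up 0.207% to 0.237% of all counts in the control tumors and 0.264% to 0.327% in the IFN-γ tumors.

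H2-D1, a classical heavy chain gene, was at 1453, 1553 and 1659 CPM in the control tumors and at 1967, 2150 and 1732 CPM in the IFN-γ tumors. The groups did not overlap, with IFN-γ tumor 3 nearest to the controls. The log2 fold change was 0.33 (SE 0.099, edgeR adjusted p = 0.349), and 0.40 without IFN-γ tumor 3 (adjusted p = 0.0468). H2-K1, the other classical gene, was at 153, 155 and 139 CPM in the control tumors and at 208, 206 and 154 CPM in the IFN-γ tumors. Here IFN-γ tumor 3 fell within the range of the controls. The log2 fold change of H2-K1 was 0.35 (SE 0.12, edgeR adjusted p = 0.389), and 0.47 without that tumor (adjusted p = 0.0224). The ratio of H2-D1 to H2-K1 CPM was 9.52 to 11.9 in the control tumors and 9.48 to 11.2 in the IFN-γ tumors, so the classical genes kept overlapping proportions.

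Of the nonclassical genes, H2-Q4 was at 297, 364 and 313 CPM in the control tumors and at 476, 479 and 374 CPM in the IFN-γ tumors. Its groups did not overlap with TMM factors, but with library size alone IFN-γ tumor 3 (364 CPM) fell below control tumor 2 (372 CPM). The log2 fold change was 0.45 (SE 0.12, edgeR adjusted p = 0.290), and 0.55 without IFN-γ tumor 3 (adjusted p = 0.0253). H2-T22, whose product is recognised by some γδ T cells, was at 127, 156 and 140 CPM in the control tumors and at 211, 224 and 158 CPM in the IFN-γ tumors. Its lowest IFN-γ tumor was just above its highest control with TMM factors and below it with library size alone (154 against 160 CPM). The log2 fold change was 0.49 (SE 0.14, edgeR adjusted p = 0.314), and 0.62 without IFN-γ tumor 3 (adjusted p = 0.0192).

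H2-T23 encodes Qa-1, the ligand of the CD94/NKG2A receptor of NK cells and CD8+ T cells. It was at 107, 145 and 145 CPM in the control tumors and at 224, 268 and 131 CPM in the IFN-γ tumors. It had the largest log2 fold change of the members, 0.65 (SE 0.24, edgeR adjusted p = 0.404), and IFN-γ tumor 3 lay between the controls. Without that tumor the log2 fold change was 0.88 (adjusted p = 0.0189), and without IFN-γ tumor 2 it was 0.42 (adjusted p = 0.835). H2-M3, which presents N-formylated peptides of bacteria and mitochondria, was at 62.4, 71.4 and 60.3 CPM in the control tumors and at 82.9, 85.5 and 65.7 CPM in the IFN-γ tumors. Again only IFN-γ tumor 3 overlapped the controls. Its log2 fold change was 0.27 (SE 0.12, edgeR adjusted p = 0.481), and 0.37 without IFN-γ tumor 3 (adjusted p = 0.0719).

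The groups did not overlap, with IFN-γ higher, for 4 of 10 members (H2-D1, H2-Q4, H2-T22 and B2m), against 7.62% of all genes tested. Without IFN-γ tumor 3 this held for 8 of 10, all but H2-Q6 and H2-Q7, against 18.1% of all genes. With CPM scaled by library size alone, without TMM factors, it held for 2 (H2-D1 and B2m), against 5.71% of all genes. IFN-γ tumors 1, 2 and 3 exceeded the control mean for 10, 9 and 8 members, against 48.3%, 49.2% and 48.9% of all genes.

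**Figure D3:**
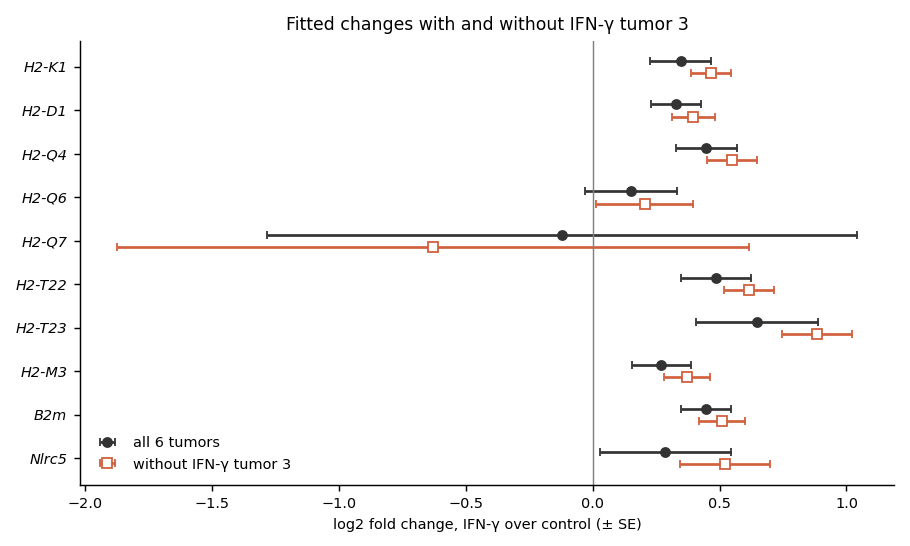
Log2 fold change of IFN-γ over control for each member with its standard error, from edgeR fits to all 6 tumors (filled circles) and without IFN-γ tumor 3 (open squares). B2m moves from 0.45 to 0.51 and H2-T23 from 0.65 to 0.88, while the error of H2-Q7 exceeds 1 on the log2 scale in both fits.

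Summing removes the uncertainty of assignment among the members only if each shared read was counted once. How such reads were handled is not given in the sources used here. Counted together, the 8 heavy chains reached 2267, 2481 and 2545 CPM in the control tumors and 3250, 3464 and 2688 CPM in the IFN-γ tumors. The groups did not overlap. Their means were 2431 ± 146 and 3134 ± 401 CPM (SD, n = 3), and the log2 fold change of the summed counts was 0.37 (0.46 without IFN-γ tumor 3), against a median of 0.34 for the 8 genes fitted singly. The ratio of B2m to summed heavy chain CPM was 0.894 to 0.935 in the control tumors and 0.922 to 1.01 in the IFN-γ tumors.

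H2-Q6 and H2-Q7 encode Qa-2 antigens, and H2-Q7 split the tumors more widely than any other gene tested did along the same line. H2-Q7 had 346, 4 and 468 counts in the control tumors and 347, 11 and 385 counts in the IFN-γ tumors. It was thus near the limit of a count of 0 in tumor 2 of each group and at 20.1 to 26.7 CPM in the other 4. The gap between those sets of tumors was 4.14 on the scale of log2(CPM + 0.5), and no other of the 15114 genes had a gap above 1 in that direction. The next was Gm6724 at 0.53. In the opposite direction, higher in tumor 2 of both groups, only Pla2g2d exceeded 1, at 1.10. This split was found after the values were seen and crosses the groups, so the log2 fold change of H2-Q7 was -0.12 with a standard error of 1.16 (edgeR adjusted p = 0.988), and 0.48 with limma-voom (adjusted p = 0.964).

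H2-Q6 was at 46.5, 36.4 and 60.9 CPM in the control tumors and at 61.6, 49.5 and 48.5 CPM in the IFN-γ tumors. The groups overlapped widely, and its lowest value was that of control tumor 2. The log2 fold change was 0.15 (SE 0.18, edgeR adjusted p = 0.832), and -0.013 without control tumor 2. H2-Q7 made up 24.6% to 32.9% of the H2-Q6 and H2-Q7 counts in the other 4 tumors, 0.615% in control tumor 2 and 1.34% in IFN-γ tumor 2. H2-Q5, which shares the most 50-base stretches with H2-Q7, was at 7.13, 19.3 and 6.80 CPM in the control tumors and at 19.1, 31.6 and 5.13 CPM in the IFN-γ tumors. Its highest values were thus in tumor 2 of both groups, with IFN-γ tumor 1 just below control tumor 2. Whether reads were assigned differently or the tumors differ in the Q genes they carry was not tested.

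**Figure D4:**
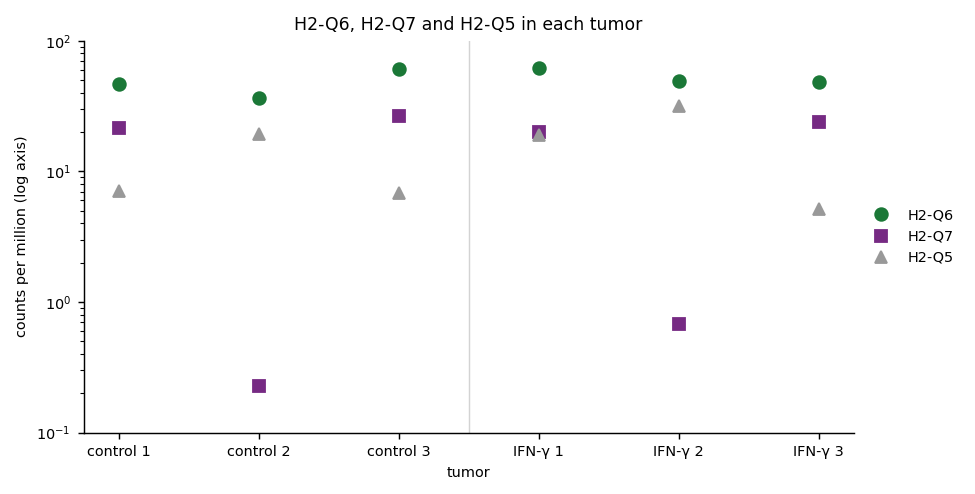
CPM of H2-Q6, H2-Q7 and H2-Q5 in each tumor, on a log axis. H2-Q7 falls to 0.226 and 0.672 CPM in tumor 2 of each group and lies at 20.1 to 26.7 CPM elsewhere, whereas H2-Q6 stays between 36.4 and 61.6 CPM.

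Nlrc5 was at 101, 156 and 102 CPM in the control tumors and at 177, 169 and 92.1 CPM in the IFN-γ tumors. Control tumor 2 was high and IFN-γ tumor 3 was the lowest of all 6, so the groups overlapped. The log2 fold change was 0.29 (SE 0.26, edgeR adjusted p = 0.770), and 0.52 without IFN-γ tumor 3 (adjusted p = 0.178). Leaving out control tumor 2 gave 0.53, control tumor 1 0.18, control tumor 3 or IFN-γ tumor 2 0.17, and IFN-γ tumor 1 0.13, so the size depended on single tumors. Without IFN-γ tumor 3, DESeq2 gave an adjusted p of 0.0314. In IFN-γ tumor 3, B2m exceeded every control while Nlrc5 was below every control. The ratio of B2m to Nlrc5 CPM was 29.4 in that tumor and 14.2 to 23.4 in the other 5.

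By Pearson correlation of log2(CPM + 0.5) over the 6 tumors, the genes most like Nlrc5 were Cplane2 (r = 0.997), Clasp2 (0.997), Phactr2 (0.995), Prex1 (0.994) and Slc29a3 (0.992). Among those most like the heavy chain sum were Ifi204 (0.999), Anpep (0.997), C1qa (0.996) and Ctss (0.994). All values of a tumor share a library and its depth, and with 6 tumors these likenesses are descriptions. Of the members, H2-M3 was most like Nlrc5 (r = 0.904) and H2-Q7 least (r = -0.639).

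No partner gene of Nlrc5 was called. Of 11 partners on class I promoters (RFX, NF-Y, CREB/ATF and histone acetyltransferases), 0 passed the adjusted threshold by edgeR with or without IFN-γ tumor 3. Of all genes, 0.0794% were called higher with that tumor and 2.46% without it. At an unadjusted p under 0.05, 0 partners were higher, against 5.74% of all genes. The median log2 fold change of the partners was 0.017. Nfya, a subunit of NF-Y, was at 102 ± 8.30 CPM in the control tumors and 94.5 ± 5.50 CPM in the IFN-γ tumors (SD, n = 3). Kat2b, an acetyltransferase, was at 79.2 ± 2.79 and 85.3 ± 8.74 CPM, and Creb1 at 83.3 ± 2.64 and 87.3 ± 3.93 CPM. The adjusted p was 0.742 for Nfya, 0.745 for Kat2b and 0.807 for Creb1 (edgeR).

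Upstream of Nlrc5, the 8 genes of the IFN-γ signal all had fold changes above 0, with a median of 0.19 on the log2 scale. None passed the adjusted threshold, against 0.0794% of all genes called higher. By edgeR, 3 were higher at an unadjusted p under 0.05, against 5.74% of all genes. Without IFN-γ tumor 3, 2 were called higher, against 2.46%. Irf1, a transcription factor induced by IFN-γ, was at 140, 211 and 162 CPM in the control tumors and at 308, 290 and 177 CPM in the IFN-γ tumors, with IFN-γ tumor 3 within the controls. Its log2 fold change was 0.60 (SE 0.22, edgeR adjusted p = 0.401), and 0.80 without that tumor (adjusted p = 0.0303). Jak2, the kinase of the receptor, was at 98.1 ± 3.27 and 111 ± 6.18 CPM, and Ifngr2, a receptor chain, at 54.2 ± 3.92 and 62.1 ± 0.722 CPM (SD, n = 3). For Jak2 and Ifngr2 the adjusted p stayed at 0.238 and 0.328 without IFN-γ tumor 3.

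The 13 genes that supply and load class I peptides had a median log2 fold change of 0.46, against 0.0015 for all genes. None passed the adjusted threshold with all 6 tumors, against 0.0794% of all genes called higher. By edgeR, 9 were higher at an unadjusted p under 0.05, against 5.74% of all genes. Without IFN-γ tumor 3, 9 were called higher, against 2.46%. Psme1 and Psme2, the subunits of the proteasome activator PA28, were at 180 ± 17.6 and 112 ± 10.7 CPM in the control tumors and at 243 ± 25.3 and 146 ± 21.3 CPM in the IFN-γ tumors (SD, n = 3). Without IFN-γ tumor 3, Psme1 had an adjusted p of 0.0345 and Psme2 of 0.0511. Tapbpl, a peptide editor, was at 35.6, 47.9 and 40.7 CPM in the control tumors and at 69.3, 76.2 and 46.6 CPM in the IFN-γ tumors. Its log2 fold change was 0.63 with all tumors (edgeR adjusted p = 0.329) and 0.80 without IFN-γ tumor 3 (adjusted p = 0.0164), which overlapped the controls.

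Of 20 other class I and class I-like genes, 18 were in the table and 12 were tested, with a median log2 fold change of 0.21. None passed the adjusted threshold, against 0.0794% of all genes called higher. By edgeR, 2 were higher at an unadjusted p under 0.05, against 5.74% of all genes. Without IFN-γ tumor 3, 3 were called higher, against 2.46%. Hfe, which regulates iron uptake, was at 31.5, 32.0 and 32.7 CPM in the control tumors and at 45.5, 46.3 and 38.0 CPM in the IFN-γ tumors, with no overlap between the groups. H2-T10, the close copy of H2-T22, was at 29.1, 32.4 and 30.5 CPM in the control tumors and at 42.3, 51.3 and 36.2 CPM in the IFN-γ tumors, also without overlap. The adjusted p was 0.222 for Hfe and 0.277 for H2-T10 in edgeR. Fcgrt, the neonatal Fc receptor, was at 125 ± 11.0 and 142 ± 7.43 CPM (SD, n = 3; adjusted p = 0.491).

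The 7 genes of the class II counterpart, led by the regulator Ciita, showed a median log2 fold change of 1.06. For 5 of them the groups did not overlap, with IFN-γ higher, against 7.62% of all genes. All 7 were higher at an unadjusted p under 0.05 by edgeR, against 5.74% of all genes. With 6 tumors 0 passed the adjusted threshold, against 0.0794% of all genes called higher. Without IFN-γ tumor 3, 7 were called higher, against 2.46%. H2-Ab1, a class II β chain, was at 28.1, 49.9 and 45.8 CPM in the control tumors and at 98.7, 116 and 58.0 CPM in the IFN-γ tumors (log2 fold change 1.14, edgeR adjusted p = 0.257). H2-Aa, an α chain, was at 61.0 ± 17.7 and 122 ± 40.6 CPM, and H2-DMb1, which helps load class II peptides, at 5.33 ± 1.15 and 10.9 ± 3.01 CPM (SD, n = 3). The class II sum was 677 to 1399 CPM in the control tumors and 2505, 2929 and 1430 CPM in IFN-γ tumors 1, 2 and 3.

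Of the genes listed as receptors of class I or class I-like molecules, 8 of 9 were tested. By edgeR, 0 passed the adjusted threshold and 0 were higher at an unadjusted p under 0.05. Of all genes, 0.0794% and 5.74% were higher by these measures. Without IFN-γ tumor 3, 2 were called higher, against 2.46% of all genes. Klrk1 encodes NKG2D, whose ligands are class I-like proteins outside the members. It was at 16.2, 23.1 and 21.5 CPM in the control tumors and at 44.1, 42.6 and 12.6 CPM in the IFN-γ tumors. IFN-γ tumor 3 was the lowest of all 6. Cd8a, a chain of the CD8 co-receptor, was at 11.9, 20.0 and 12.5 CPM and at 30.0, 25.9 and 10.8 CPM, and Pirb, an inhibitory receptor of myeloid and B cells, at 27.5 ± 2.05 and 34.8 ± 10.6 CPM (SD, n = 3). For Klrk1 and Pirb the adjusted p without IFN-γ tumor 3 was 0.0123 and 0.0246, and for Cd8a it was 0.0641.

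The leukocyte marker sum exceeded all controls in IFN-γ tumors 1 and 2, as did the heavy chain sum. In IFN-γ tumor 3 only the heavy chain sum did. In bulk RNA, more cells of a type and more RNA per cell cannot be told apart. All 5 leukocyte markers had log2 fold changes above 0, against 50.4% of all genes. By edgeR, 2 were higher at an unadjusted p under 0.05, against 5.74% of all genes. Their sum was 483 to 598 CPM in the control tumors and 841, 869 and 481 CPM in IFN-γ tumors 1, 2 and 3. The 7 macrophage markers summed to 3276 to 3947 CPM in the control tumors and to 4910, 5986 and 3602 CPM in the IFN-γ tumors. The sums of the 6 T cell markers were 40.5 to 63.4 CPM in the control tumors and 86.1, 97.2 and 33.8 CPM in the IFN-γ tumors. NK cell markers (4 genes) summed to 22.8 to 40.0 CPM and to 51.0, 57.6 and 17.3 CPM, and dendritic cell markers (6 genes) to 32.0 to 50.5 CPM and to 63.0, 66.5 and 38.4 CPM. In each of these lists IFN-γ tumors 1 and 2 were above all controls and IFN-γ tumor 3 was within or below their range, and no marker of them was at 0 in every tumor. The heavy chain sum was 2688 CPM in IFN-γ tumor 3 and 2267 to 2545 CPM in the control tumors. The part of leukocyte RNA in the class I differences was not tested.

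**Figure D5:**
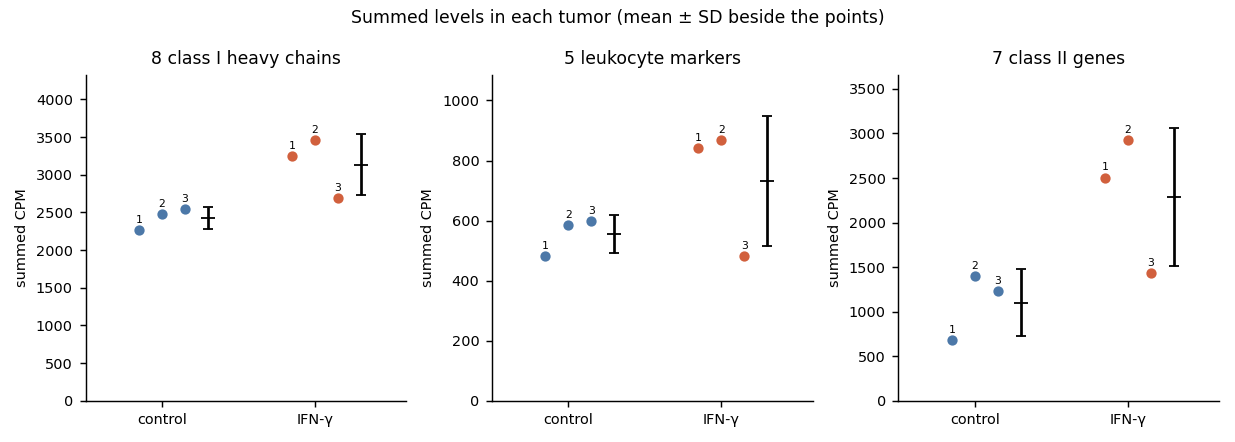
Summed CPM of the 8 class I heavy chains, the 5 leukocyte markers and the 7 class II genes in each tumor (points, numbered), with mean and SD (n = 3); axes start at 0. IFN-γ tumors 1 and 2 are above all controls in each panel, while IFN-γ tumor 3 is at 2688 CPM for the heavy chains and at 481 CPM for the leukocyte markers.

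Markers of tissue around the tumor also differed between tumors. The 5 adipocyte markers summed to 5.98 to 11.4 CPM in the control tumors and 25.5 to 54.1 CPM in the IFN-γ tumors. By edgeR, all 5 were higher at an unadjusted p under 0.05, against 5.74% of all genes. The 4 keratinocyte markers summed to 68.4 CPM in IFN-γ tumor 3 and 2.75 to 12.3 CPM in the other 5. The colon epithelium sum was 283 CPM in IFN-γ tumor 3 and 123 to 188 CPM in the others. Most of it was Krt20, at 271 CPM in that tumor and 113 to 174 CPM in the others, while the median log2 ratio of the list in that tumor to the control mean was -0.13. Fibroblast sums overlapped between the groups, at 2841 to 3926 and 2792 to 3954 CPM, as did those of skeletal muscle at 102 to 719 and 119 to 383 CPM. Endothelial sums were 206 to 261 and 164 to 216 CPM, B cell sums 5.63 to 9.36 and 6.31 to 6.66 CPM, and neutrophil sums 27.1 to 34.6 and 35.0 to 45.6 CPM. With library size alone the neutrophil sums overlapped, at 27.0 to 35.1 and 34.1 to 44.9 CPM, and no single neutrophil marker separated the groups upward. Their part in the class I differences was not tested.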

How the data were processed

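The 6 columns of the table, 3 tumors per group, were all used. Their values are raw read counts for each gene, as deposited by the authors. HISAT2 and mm10 are named in the submitters' processing notes, and the counting program, the annotation, the strandedness and the read length are not given in the sources used here. Of the gene IDs, 99.5% were found in GENCODE M21 (GRCm38). CPM used TMM factors. All genes that passed edgeR's default filter were fitted together, with the quasi-likelihood test of edgeR 4.0.16 in R 4.3.3, Benjamini-Hochberg adjustment over 15114 genes and a threshold of 0.05. The error of a log2 fold change is its size over the square root of the F statistic. RPKM divided CPM by the exon length, in kilobases, of coding transcripts merged. Shares of stretches count distinct stretches of a member's coding transcripts. Coding sequences were aligned with Biopython 1.88.

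Alternatives were DESeq2 1.42.0, limma-voom (limma 3.58.1), other scalings and filters, a replicate block and fits without each tumor. A fit without tumor 2 of both groups was added after seeing the data. The scripts were tested on simulated counts. Members and gene lists were chosen with earlier results of these data known. The named genes were the 10 members, the 3 list genes with the smallest p in each pathway list where none passed the threshold, and the 5 genes most like Nlrc5 and most like the heavy chain sum, of which 1 is not reported here.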

Additional observations from a re-analysis of the deposited data

How the results depend on the processing

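Over the alternatives, 128 of 160 fold changes of single members kept their direction and their side of the threshold, 26 passed it and 6 reversed. Fits without each tumor called 0 to 6 members higher (0.0259% to 2.46% of all genes), 6 only without IFN-γ tumor 3. DESeq2 on all 6 tumors called 3 (0.867%), and edgeR without a filter on low counts called 3 (0.558%). Without IFN-γ tumor 3, DESeq2 called 8 (4.5%) and limma-voom 6 (2.72%). The members not overlapping between the groups numbered 4 to 8 without each tumor (10.8% to 18.1% of all genes) and 2 with library size alone (5.71%). No alternative called a member lower. The reversals were those of H2-Q6 without control tumor 2 (-0.013, range without each tumor -0.013 to 0.36) and of H2-Q7, at 0.015 with the replicate block, 0.48 with limma-voom and -0.70 to 0.45 without each tumor. The cause of these changes was not tested.

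Over all genes tested, deviations of same-numbered tumors from their group means correlated at -0.24, -0.0047 and -0.22, so no general pairing by replicate number was seen. This measure cannot show whether same-numbered tumors shared a source, and H2-Q7 was near 0 in tumor 2 of each group. With the replicate block 0 members were called higher and 0 lower (0.0331% and 0.0132% of all genes). Without tumor 2 of both groups, chosen after seeing the data, 0 members were called (0.0197% of all genes higher and 0.00658% lower). Without control tumor 1, 0 were called (0.0388% and 0.0129%) and the log2 fold change of the heavy chain sum was 0.32, against 0.37. Singly, log2 fold changes were then lower for every member except H2-K1 (0.36) and H2-Q7, which reversed to 0.14. H2-T23 was at 0.52, H2-T22 at 0.42 and B2m at 0.39.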
